A study of Mus musculus with 8 samples.

Results

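The cytosolic ribosomal protein genes were followed across 8 libraries of mouse blood stem and progenitor cells. Members were all protein coding rows of the deposited table whose symbol has the form of a small subunit (Rps) or large subunit (Rpl) ribosomal protein, including Rpsa, the acidic stalk genes Rplp0, Rplp1 and Rplp2, and paralogs with symbols ending in l or l1. The rule gave 84 of 53700 rows, 32 for the small subunit and 52 for the large subunit. Of these, 81 passed the filter on low counts, namely all 32 small and 49 large subunit genes. The other 3, Rpl10l, Rpl3l and Rpl39l, had no count in any library. Polyadenylated RNA was taken from pooled, sorted bone marrow cells of irradiated wild-type CD45.1 recipients, 13 weeks after they were given CD45.2 donor marrow, with 5 mice in each pool. Haematopoietic stem cells (HSC) were CD48- CD150+ and multipotent progenitors (MPP) were CD48+ CD150-, both within the LSK population (lineage-negative, Sca-1+, Kit+). The 4 donor genotype labels were WT (Nfat5 +/+ Vav-Cre), N5 (Nfat5 fl/fl Vav-Cre), IFNAR (IFNAR1-deficient) and DKO (both deficiencies, with Nfat5 fl/fl and Vav-Cre). The design thus allowed HSC to be compared with MPP, and the labels of Nfat5 and Ifnar1 deficiency to be compared within each cell type. Vav-Cre acts across blood-forming cells, so the deletion was carried by the donor cells, while the recipient's own stroma was wild-type in every group. Each combination of cell type and label was 1 library, so no group was replicated, and p-values measure only the spread between these libraries.

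Cytosolic ribosomes are built from a small subunit, which reads the mRNA, and a large subunit, which forms the peptide bond, and most of their proteins are encoded by a single active gene and present once per ribosome. Transcripts of ribosomal proteins typically begin with a C followed by a run of pyrimidines, the 5′ terminal oligopyrimidine (TOP) motif, through which mTOR and LARP1 control how well they are translated. Adult HSC are known for a low rate of protein synthesis, and loss of a copy of single members, such as Rps19, Rpl5 or Rpl11, causes the red cell failure of Diamond-Blackfan anaemia.

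Windows around the annotated transcript starts were read for the members with an entry in the RefSeq promoter table (GRCm38.p6), 61 of the 81. The windows below hold 15 bases to each side of the start, so base 16 is the annotated first base, and capitals mark the longest run of C and T bases that begins with C, counted within the window. Rps12, Rpl27a and Rps27l are shown because their HSC levels had the largest positive differences by Nfat5 label, Rps6 and Rps18 as small subunit genes named below, and Rpl15 as a member with a long run that had lower values under the Nfat5-deficient label. Rpl36al, Rpl7l1 and Rpl5 are members without a run whose values went against most of the others. Some members with a run did so too, such as Rpl22l1 (8 bases, HSC difference by Nfat5 label of -0.15). The windows shown were picked, so they do not show how runs and differences relate.
Rps12 (chr10:23787195-23787224, minus strand): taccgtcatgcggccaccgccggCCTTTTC
Rpl27a (chr7:109519180-109519209, plus strand): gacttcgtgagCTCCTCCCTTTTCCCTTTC
Rps27l (chr9:66946071-66946100, plus strand): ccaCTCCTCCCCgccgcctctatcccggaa
Rps6 (chr4:86857353-86857382, minus strand): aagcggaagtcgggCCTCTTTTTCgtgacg
Rps18 (chr17:33955651-33955680, minus strand): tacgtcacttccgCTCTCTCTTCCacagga
Rpl15 (chr14:18270972-18271001, minus strand): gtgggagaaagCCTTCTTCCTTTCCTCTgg
Rpl36al (chr12:69184053-69184082, minus strand): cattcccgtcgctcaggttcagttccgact
Rpl7l1 (chr17:46782642-46782671, minus strand): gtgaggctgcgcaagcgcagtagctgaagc
Rpl5 (chr5:107900513-107900542, plus strand): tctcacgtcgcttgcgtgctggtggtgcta

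A run of 5 or more pyrimidines within these windows was present at 41 of 72 member starts, 56.9%, against 36.4% of all promoters in the table. Runs of 8 or more bases, a length chosen after the runs were seen, stood at 37.5% of member starts and 9.26% of all promoters. A C and 4 further pyrimidines exactly at the annotated start, also chosen afterwards, were found at 18.1% of member starts and 2.51% of all. In the 300-base promoter windows, both strands, the ETS family word CCGGAAGT was present in 16.7% of member promoters and 3.89% of all, and the YY1 word AAGATGGC in 11.1% and 2.75%. GGGCGG, bound by the Sp family, was present in 62.5% of member promoters and 35.7% of all, but in 47.5% of the promoters of protein coding genes. The E-box CACGTG was present in 11.1% and 7.15%. The 75 promoters of mitochondrial ribosomal protein genes held the ETS word as often (16.0%) and the YY1 word in 16.0%, but a run of 8 or more pyrimidines in only 10.7%. A run of 5 or more was present in 44.0% of them, GGGCGG in 52.0% and the E-box in 9.33%. These are matches of letters near annotated starts, and the starts used in these cells were not measured.

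Total counts ran from 28871693 to 47205950 per library, and the least abundant measured member still had 823 counts in its lowest library. Sorting markers followed the cell type labels: Slamf1 (CD150) had 52.2 to 89.97 CPM (counts scaled to library size by TMM) in HSC and at most 0.0275 CPM in MPP, and Cd48 had at most 6.36 CPM in HSC and 202 to 284 CPM in MPP. The targeted transcripts did not follow the genotype labels in every library. Nfat5 had 33.15, 22.7, 3.12 and 35.55 CPM in HSC (WT, N5, IFNAR, DKO) and 5.59, 7.69, 0.193 and 11.5 CPM in MPP. It was thus lowest under IFNAR, where it should be intact. Ifnar1 had 121.9, 125.6, 113 and 35.1 CPM in HSC and 37.2, 87.9, 43.8 and 125 CPM in MPP. Under DKO, a label of Ifnar1 deficiency, Ifnar1 was lowest in HSC but highest in MPP. The labels do not state how much of either transcript a deficient allele leaves. Names of libraries below are thus labels only, and each direction given by genotype rests on labels that these transcripts did not follow throughout. Whether any label is wrong cannot be told from these gene-level counts.

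Ribosomal protein genes took 4.97% to 6.76% of all counts. In HSC their share was 5.48% in the library labelled WT (95% exact binomial interval 5.47% to 5.48%, counting error only), 6.36% under N5, 5.86% under IFNAR and 6.76% under DKO. In MPP it was 5.39% under WT, 4.97% under N5, 5.77% under IFNAR and 5.65% under DKO. The 2 highest libraries were the HSC libraries labelled Nfat5-deficient, the lowest was the MPP library labelled N5, and the cell types overlapped. The means were 6.11% ± 0.562 (SD, n = 4) in HSC and 5.45% ± 0.357 (SD, n = 4) in MPP. Rn18s, the 18S rRNA, took 4.09% to 5.38% of counts in HSC and 3.43% to 4.05% in MPP, without overlap, and its part in the members' shares was not tested. Without Rn18s and the mitochondrial genes in the total, the members' share was 5.87% to 7.23% in HSC and 5.29% to 6.18% in MPP. In such bulk samples, fewer cells of a type and less RNA per cell cannot be told apart.

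**Figure D1:**
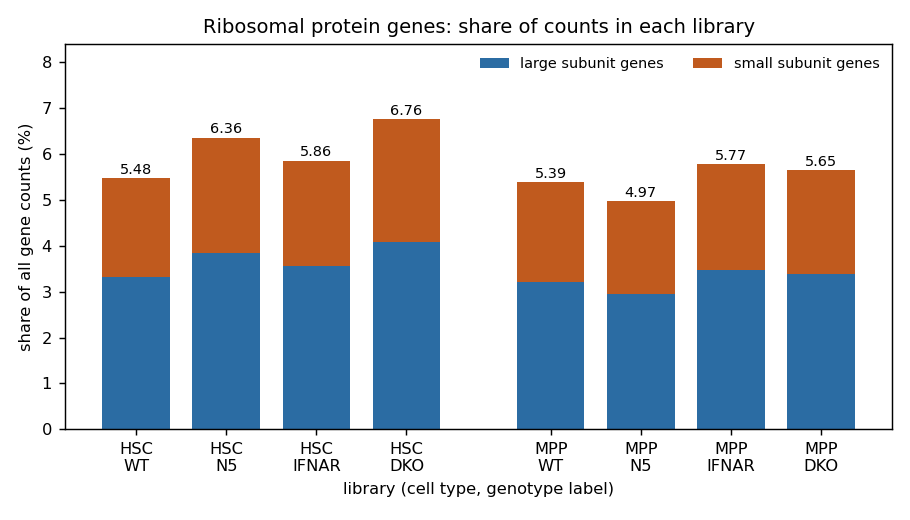
Share of all gene counts (percent, vertical axis) taken by large subunit genes (blue) and small subunit genes (orange) in each of the 8 libraries, with the sum printed above each bar. The HSC libraries labelled N5 (6.36%) and DKO (6.76%) are the highest, and the MPP library labelled N5 (4.97%) is the lowest.

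The balance of the subunits was narrower than their sum. Small subunit genes held 39.2% to 39.5% of the member counts in the 4 HSC libraries and 39.96% to 40.4% in the 4 MPP libraries. The means were 39.4% ± 0.184 (SD, n = 4) and 40.1% ± 0.214 (SD, n = 4), and all HSC libraries lay below all MPP libraries. Without the paralogs the small subunit share was 39.5% to 39.9% in HSC and 40.2% to 40.7% in MPP, again without overlap. Without the 5 most abundant members, the cell types overlapped at 46.9% to 47.9% and 47.7% to 48.8%. Small subunit members had the higher median CPM per gene, not divided by length, by 0.48 to 0.66 log2 units in HSC and 0.75 to 0.88 in MPP. Per kilobase of transcript, the ratio of the small to the large subunit median was 0.99 to 1.25 in HSC and 1.03 to 1.13 in MPP, with overlap.

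Single members spanned a wide range per length. Levels per kilobase used the shortest principal transcript of each gene in GENCODE M21, a length set after the median over principal transcripts had given improbable values, such as 5130 bases for Rps15a with a coding length of 390 bases. Per kilobase of transcript, members ran from 95.99 to 3157 CPM, a 32.9-fold range that became 70.5-fold with the median transcript length and 50.2-fold with coding length. Rpl13 was highest at 3157 CPM per kb, followed by Rplp0, the base of the acidic stalk, at 2615 CPM per kb. Rps6, the substrate of S6 kinase, had 2448 CPM per kb, Rpl4 had 2265 CPM per kb and Rps2 had 2119.9 CPM per kb. The same 5 were highest with the median transcript length, and 3 of them (Rpl13, Rplp0 and Rps6) were among the 5 highest by coding length, where Rpl41 was the highest.

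At the low end among single-copy members stood Rps21 at 95.99 CPM per kb and Rpl37 at 100.3 CPM per kb. Rpl5, which carries the 5S rRNA with Rpl11, had 129.7 CPM per kb. Rps20 had 142 CPM per kb and Rpl12 had 161 CPM per kb. The place of Rps20 turned on its annotated length of 3706 bases: it ranked 78 of 81 per kilobase of transcript and 27 per kilobase of coding sequence. The median small subunit gene had 655 CPM per kb and the median large subunit gene 618 CPM per kb of transcript, but 1336 and 802 CPM per kb of coding length, so the size of that gap depended on the length used.

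**Figure D2:**
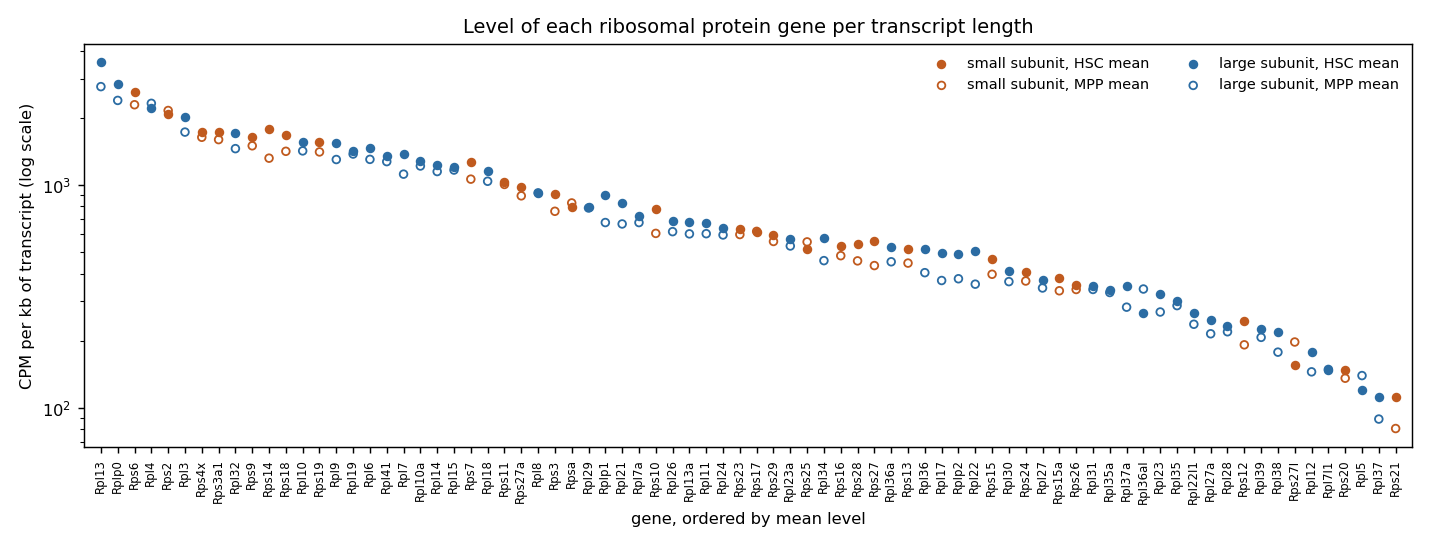
Mean level of 78 of the 81 measured genes in CPM per kilobase of transcript (log axis), ordered from high to low, with filled points for the mean of 4 HSC libraries and open points for the mean of 4 MPP libraries, orange for small and blue for large subunit genes. Levels span 32.9-fold from Rpl13 to Rps21, and the distance between filled and open points is small beside that range.

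Within a cell type the members varied little. The median standard deviation of log2 CPM over 4 libraries was 0.20 in HSC and 0.14 in MPP, against 0.52 and 0.39 for 5544 other genes with a mean CPM in the members' range. Mitochondrial ribosomal protein genes had 0.47 and 0.31, but together they took only 0.438% to 0.539% of counts. Neither set was matched to the members in level, and the part of level in the spread was not tested. Across the 81 members, Pearson correlations of log2 CPM between libraries were 0.983 to 0.993 over the 6 HSC pairs, 0.994 to 0.995 over the 6 MPP pairs and 0.983 to 0.991 over 16 pairs across cell types, where the other genes gave 0.51 to 0.80 over all pairs. These are descriptions across genes, which share library and depth and are not replicates. The other genes in these correlations were not matched in level either.

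HSC and MPP were compared to ask whether the gene set differs with the step from stem cell to progenitor. No member passed the test. In edgeR with the genotype label as a block, 2 of 12132 genes were called (0.0165%) and neither was a member, at a smallest adjusted p of 0.34 among members. Of the 81 members, 69 had a higher estimate in HSC (44.2% of all genes tested did), with a median log2 fold change of 0.15 against -0.10 over all genes tested. Leaving out 1 library moved this median: it was 0.05 without HSC labelled N5 or without MPP labelled N5, 0.24 without HSC labelled IFNAR and 0.23 without MPP labelled IFNAR. With the label as a block, the partner of a left-out library adds nothing to this estimate. Each such fit thus leaves out a whole pair of the same label. The large subunit gave 44 of 49 and the small subunit 25 of 32. At an unadjusted p under 0.05, 7 members were higher in HSC (4.45% of all genes were), namely Rpl13, Rpl17, Rpl21, Rpl22, Rpl7, Rps14 and Rps18, and 0 were lower (5.65%). The 7 became 1 without any single library labelled N5 or DKO, and 2 without either library labelled WT. DESeq2 called 14 members higher in HSC (6.89% of all genes) and 0 lower (8.61%), while limma-voom called 0 members (0.453% of all genes higher and 0.833% lower), as did edgeR's bias-adjusted method (0.445% and 0.437%).

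The pairs of libraries with the same label did not give the same picture. Under WT, HSC exceeded MPP in 39 of 81 members (46.9% of all genes tested), at a ratio of the shares of 1.02. Under IFNAR the numbers were 34 of 81 (47.4%) and 1.01, so the first count lay near the share over all genes and the second below it. Under N5, 77 of 81 members were higher in HSC (48.6% of all genes) at a ratio of 1.28, and under DKO 74 of 81 (48.5%) at a ratio of 1.20. Without the HSC libraries labelled N5 and DKO, a choice made after the shares were seen, 32 of 81 members had a higher estimate in HSC (44.5% of all genes did). The median log2 fold change was -0.06 against -0.12 over all genes, so the members then lay near the genes at large. With the label as a block, this fit rests only on the WT and IFNAR pairs, so it restates them and is no further check. HSC was higher in all 4 pairs for 23 members (9.81% of all genes tested) and lower in all 4 for 2, Rpl36al and Rpl5 (12%).

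**Figure D3:**
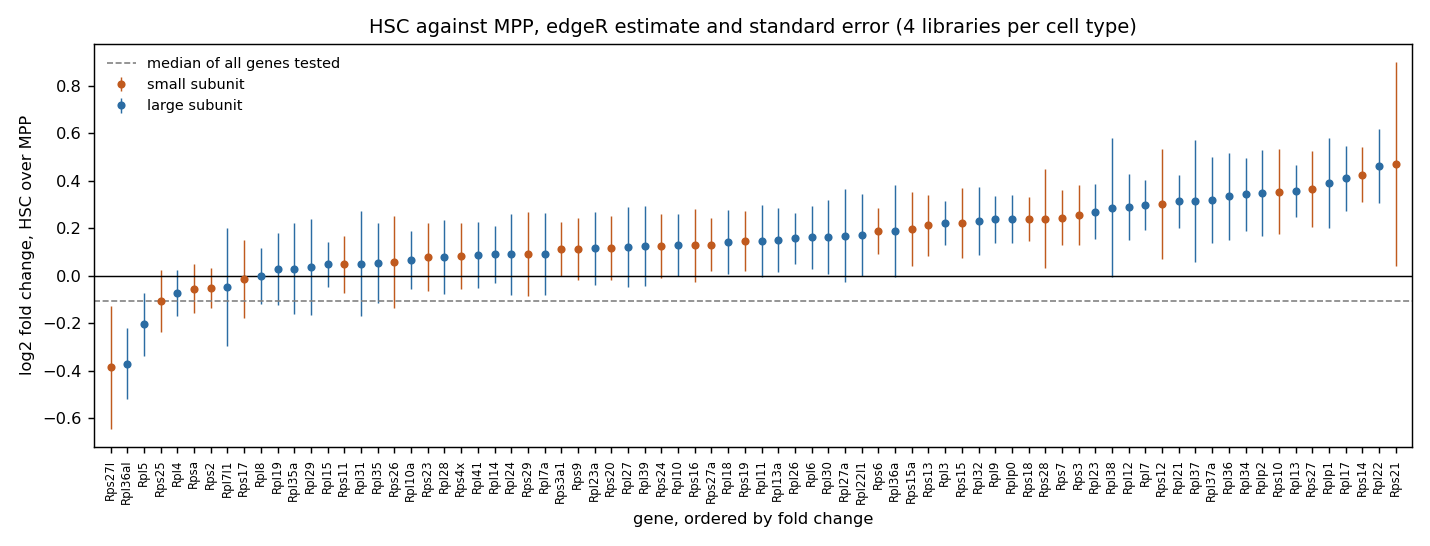
Log2 fold change of HSC over MPP for 78 of the 81 genes (edgeR estimate, bars 1 standard error, 8 libraries with the genotype label as a block), ordered from low to high, with small subunit genes in orange and large subunit genes in blue. The estimates lie above 0 for 68 of the genes drawn, and the dashed line marks the median of all genes tested at -0.10.

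In 12 members every HSC library lay above every MPP library (4.73% of all genes tested), and in 0 the reverse (5.65%). The 12 were Rpl13, Rpl17, Rpl3, Rpl34, Rpl7, Rpl9, Rplp0, Rps15, Rps21, Rps27, Rps3 and Rps6. Rpl13 levels in HSC were 2399.5 CPM (WT), 2943 CPM (N5), 2598 CPM (IFNAR) and 3142 CPM (DKO), and in MPP, with labels ordered likewise, 2193, 2001, 2199.8 and 2223 CPM. Its HSC libraries were all higher, with those labelled N5 and DKO the highest, at a log2 fold change of 0.36 ± 0.11 (SE) and an adjusted p of 0.39 in edgeR.

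The largest positive estimates belonged to Rps21, Rpl22, Rps14, Rpl17 and Rplp1. Rps14, the small subunit gene lost in the human 5q- syndrome, had 1191, 1087, 819 and 1163 CPM in HSC and 826, 712, 741 and 868 CPM in MPP (WT, N5, IFNAR, DKO). Only the HSC library labelled IFNAR lay among the MPP values, and the log2 fold change was 0.43 ± 0.12 (SE), with an adjusted p of 0.34 in edgeR and 0.00018 in DESeq2. Rpl22, which binds RNA at the surface of the large subunit and is needed for T cell development, had 161, 254, 279 and 259 CPM in HSC and 153, 160.0, 191 and 176 CPM in MPP. Here the HSC library labelled WT was the one within the MPP range, and the log2 fold change was 0.46 ± 0.16 (SE). Rpl17 was higher in all HSC libraries at 339 to 437 CPM against 265 to 321 CPM, a log2 fold change of 0.41 ± 0.14 (SE). Rps21 had the largest estimate, 0.47 ± 0.43 (SE), with an error nearly as large.

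The largest negative estimates included those of Rps27l, Rpl36al, Rpl5 and Rps25, none called by edgeR or DESeq2. Rpl5 had 250.2, 211, 245 and 278 CPM in HSC and 258, 239, 342 and 300.02 CPM in MPP, lower in HSC in all 4 pairs although the cell types overlapped, at a log2 fold change of -0.20 ± 0.13 (SE). Its partner Rpl11, which with Rpl5 and 5S rRNA binds the p53 ligase Mdm2, had 435, 602, 539 and 663 CPM in HSC and 479.8, 417, 569 and 546 CPM in MPP. Rpl11 was higher in HSC in 2 of 4 pairs, at 0.15 ± 0.15 (SE). Rps19, the member most often mutated in Diamond-Blackfan anaemia, ranged from 884 to 1166 CPM in HSC and 731 to 969 CPM in MPP, with overlap, at 0.15 ± 0.13 (SE). Rps25 had a log2 fold change of -0.11 ± 0.13 (SE).

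The stalk of the large subunit recruits translation factors through Rplp0, which anchors the proteins Rplp1 and Rplp2. Rplp0 had 3682, 4116, 3423 and 4179 CPM in HSC and 3179.9, 3065, 3381 and 3384 CPM in MPP. All HSC libraries were higher, the nearest being HSC labelled IFNAR and MPP labelled DKO, and the log2 fold change was 0.24 ± 0.10 (SE). Rplp1 had 383, 556, 352 and 509 CPM in HSC and 352, 294, 356 and 350.2 CPM in MPP. Its HSC libraries labelled N5 and DKO stood above the rest and the others lay in or near the MPP range, at 0.39 ± 0.19 (SE). Rplp2 ranged from 166 to 247 CPM in HSC and 143 to 169 CPM in MPP, higher in HSC in all 4 pairs, at 0.35 ± 0.18 (SE).

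Some paralogs departed from the rest. Among the 4 measured, Rps27l and Rpl36al had negative HSC estimates and Rpl22l1 a positive one of 0.17 ± 0.17 (SE). Rpl7l1 had a negative estimate much smaller than its error, -0.05 ± 0.25 (SE). Of the 77 members that are not paralogs, 9 had a negative estimate, and 44.2% of all genes tested had a positive one. Rps27l, a p53 target and paralog of Rps27, had 57.15, 103, 64.3 and 84.5 CPM in HSC and 101, 93.3, 101 and 98.5 CPM in MPP. The HSC library labelled N5 was the only one in HSC above the MPP range, and the log2 fold change was -0.39 ± 0.26 (SE). Its parent Rps27 ranged from 170 to 222 CPM in HSC and 132 to 162 CPM in MPP, without overlap, at 0.36 ± 0.16 (SE). Rpl36al, which is nearly identical to Rpl36a so that reads may be split between them, had 117, 132, 181 and 128 CPM in HSC and 179.95, 154, 215 and 168 CPM in MPP. It was lower in HSC in every pair, at -0.37 ± 0.15 (SE), while Rpl36a ranged from 195 to 341 CPM in HSC and 198 to 228 CPM in MPP, with an estimate of 0.19 ± 0.20 (SE). Rpl22l1 ranged from 124 to 165 CPM in HSC and 109.7 to 161 CPM in MPP, beside 161 to 279 CPM and 153 to 191 CPM of its parent Rpl22, and these cannot be compared between genes without length. Rpl10l and Rpl39l, known from testis, and Rpl3l, known from striated muscle, had 0 counts in all 8 libraries, where a count of 0 allows up to 3 counts, or 0.0633 to 0.105 CPM. Their parents had means over HSC of 1241 CPM (Rpl10), 139 CPM (Rpl39) and 2719.7 CPM (Rpl3).

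By Nfat5 label, 0 members were called across both cell types in edgeR (0.0% of all genes), 0 at an unadjusted p under 0.05 (1.41% of all genes were higher at that p and 1.38% lower), and 0 in DESeq2 (0.684% of all genes were called higher and 0.684% lower), limma-voom or the bias-adjusted method. Of the 81 members, 63 had a higher estimate under the deficient label (51.6% of all genes tested did), at a median of 0.09 against 0.02. With 1 library left out, the count ran from 45 to 72 and the median was 0.03 to 0.06 without 1 of the HSC libraries, 0.16 without MPP labelled N5 and 0.13 without MPP labelled IFNAR. Within each cell type the differences had opposite signs. In HSC, the libraries labelled N5 and DKO were both above those labelled WT and IFNAR in 60 of 81 members (17.3% of all genes tested) and both below in 3, Rpl15, Rpl7l1 and Rpl8 (15.6%). The median difference over members was 0.28 log2 units, with all 32 small subunit genes and 43 of 49 large subunit genes above 0, against 0.04 over all genes tested. In MPP, the same labels were both below in 27 members (16.5%) and both above in 1, Rpl7l1 (16.5%), with a median of -0.12.

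Counted by pair, 39 members were higher under the Nfat5-deficient label in both HSC pairs and lower in both MPP pairs (6.54% of all genes tested), and Rpl7l1 alone did the reverse (5.61%). A test of whether the difference by Nfat5 label depends on the cell type, added after the shares were seen, called 0 members in edgeR (0.0%). At an unadjusted p under 0.05 it gave 9 members with a more positive difference in HSC (2.3% of all genes): Rpl11, Rpl14, Rpl19, Rpl36a, Rpl6, Rplp1, Rps23, Rps26 and Rps29. It gave 1 member with a more negative difference, Rpl7l1 (2.12%). Estimates were above 0 in all but Rpl7l1 and Rpl8, 79 of 81 members (51.8% of all genes tested), with a median of 0.37 against 0.05. DESeq2, limma-voom and the bias-adjusted method were not run for it. The 4 pairs share no library, but each is 1 library against 1.

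**Figure D4:**
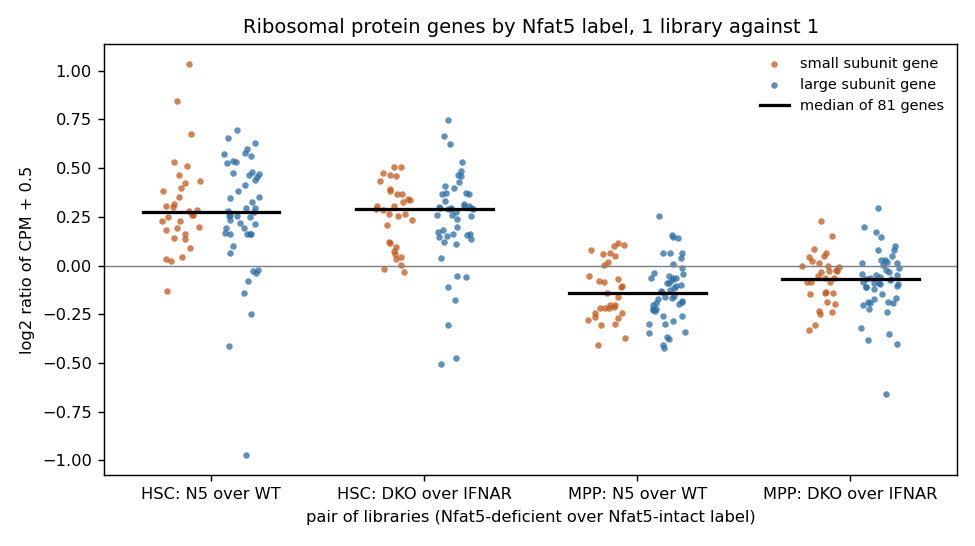
Log2 ratio of CPM + 0.5 between a library labelled Nfat5-deficient and the library with the same Ifnar1 label and intact Nfat5 label, for 81 genes (points; orange small, blue large subunit) in the 4 pairs, with the median as a black bar. Medians are 0.27 and 0.29 for HSC but -0.14 and -0.07 for MPP.

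Rps12 showed the largest HSC difference by Nfat5 label, 0.69 log2 units. It had 79.5 and 105 CPM under WT and IFNAR and 164 and 133 CPM under N5 and DKO in HSC, and 86.4, 100.4, 92.5 and 98.7 CPM in the same order in MPP. Rpl27a followed at 0.66, with 234 and 209 CPM under WT and IFNAR and 347 and 351 CPM under N5 and DKO in HSC, while MPP ran from 224 to 274 CPM. In both genes the HSC groups did not overlap and the MPP libraries lay close together. Rpl7l1, which takes the place of Rpl7 in early precursors of the large subunit, went the other way. It had 247 and 236 CPM under WT and IFNAR and 125 and 169 CPM under N5 and DKO in HSC, a difference of -0.72, and 199 and 167 CPM against 207 and 205 CPM in MPP. Over both cell types, the largest positive edgeR estimates by this label were 0.37 ± 0.23 (SE) for Rps12, 0.33 ± 0.18 (SE) for Rpl27a, 0.28 ± 0.24 (SE) for Rps27l, 0.27 ± 0.13 (SE) for Rpl13a and 0.22 ± 0.18 (SE) for Rpl36a. The largest negative ones were -0.27 ± 0.24 (SE) for Rpl7l1, -0.23 ± 0.16 (SE) for Rpl36al, -0.20 ± 0.16 (SE) for Rpl22l1, -0.14 ± 0.19 (SE) for Rpl29 and -0.12 ± 0.09 (SE) for Rpl15. The parent of Rpl7l1, Rpl7, was higher under the Nfat5-deficient label in all 4 pairs, as were Rpl13a, Rpl27a and Rps18 (5.79% of all genes tested), and Rpl15 was lower in all 4 (5.35%).

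By pyrimidine run within 15 bases of the start, the median HSC difference was 0.32 log2 units for the 39 with a run, 0.22 for the 22 without and 0.24 for the 20 that were not in the promoter table. Rpl27a and Rpl15, with the long runs printed above, had HSC differences of 0.66 and -0.04. By transcript length, Spearman's rho with the HSC difference was -0.25 across 81 genes, which share libraries and are not replicates. The medians showed no steady trend, at 0.37 for 271 to 437 bases, 0.22 for 474 to 597 bases, 0.29 for the next class and 0.27 for the longest, 914 to 3706 bases.

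Some other measures also separated by Nfat5 label in HSC. Of all single genes tested, 17.3% had both deficient labels above both others and 15.6% below. The summed level of 7 erythroid markers was 868.5 and 595 CPM under N5 and DKO, against 259 and 375 CPM under WT and IFNAR and 172 to 312 CPM in MPP, with none of the 7 at 0 throughout HSC. The 6 MPP markers summed to 294 and 268 CPM against 477 and 552 CPM, and the 6 B cell markers, of which 1 was at 0 in HSC, to 34.7 and 30.7 CPM against 59.8 and 90.8 CPM. The 6 monocyte and macrophage markers, 4 of them at 0 throughout HSC, summed to 0.0326 and 3.08 CPM against 46.98 and 10.7 CPM. The 6 neutrophil markers summed to 607 and 586 CPM against 551 and 572 CPM. The sums of HSC, LSK, megakaryocyte, T and NK cell, and stroma and endothelium markers did not separate by this label. More genes had a count under N5 and DKO (14094 and 14185) than under WT and IFNAR (13510 and 13669), and mitochondrial genes took 1.899% and 1.86% of counts against 2.07% and 2.12%. Rn18s took 5.38% and 4.73% against 4.71% and 4.09%. The part of these in the ribosomal protein differences was not tested.

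**Figure D5:**
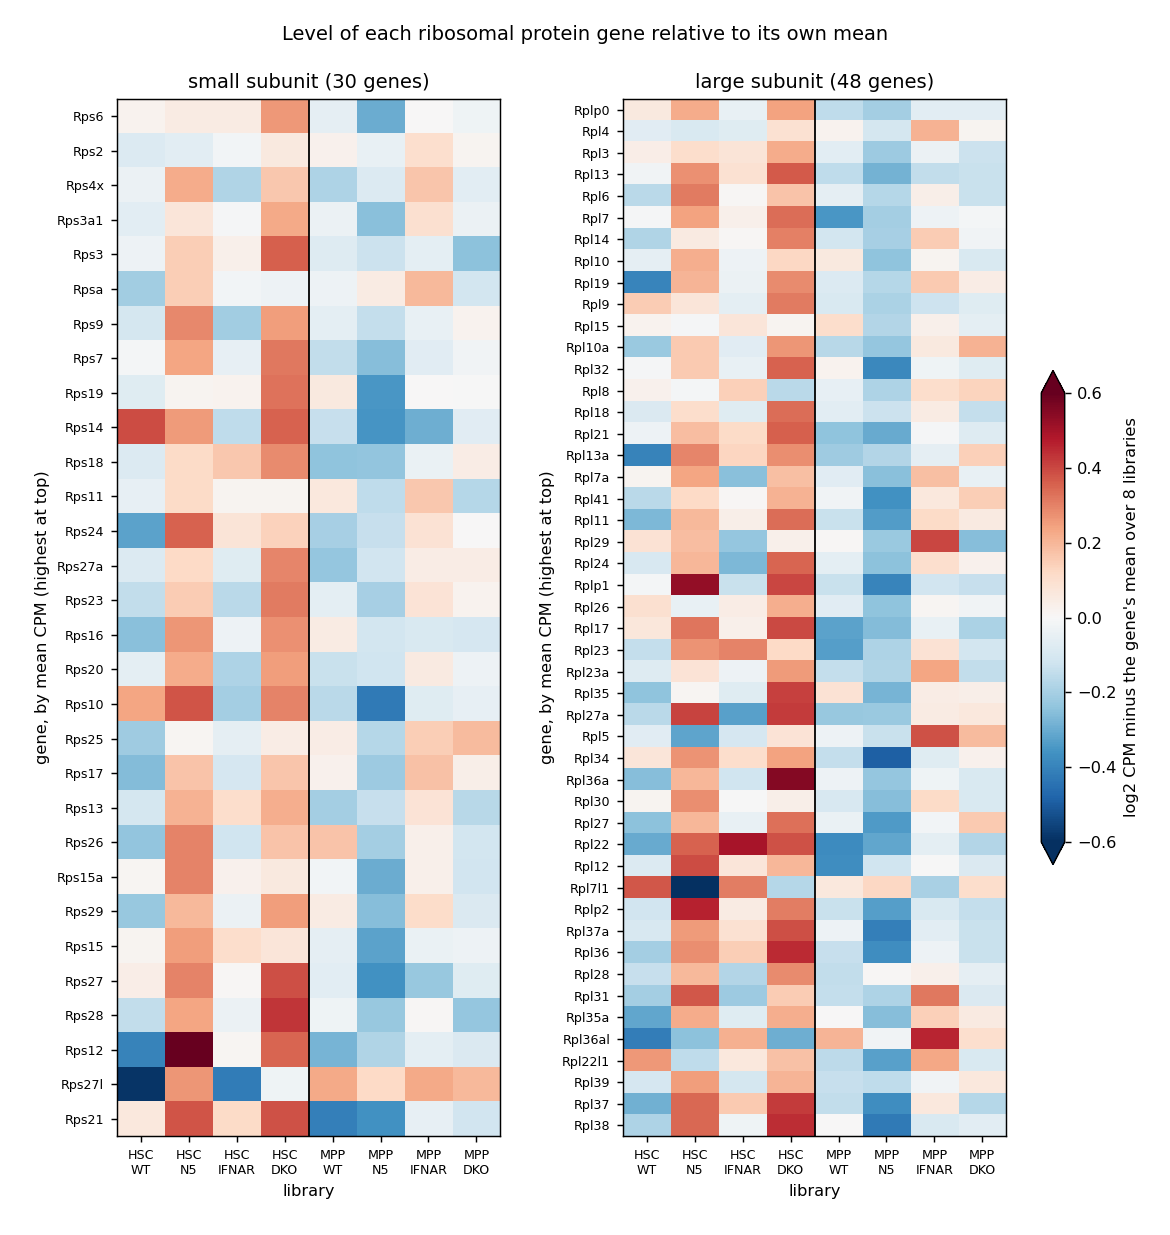
Log2 CPM of 78 of the 81 genes minus its own mean over the 8 libraries (colour, red above and blue below the mean; the scale ends at 0.6 in each direction), for small subunit genes (left) and large subunit genes (right) in order of mean CPM. The columns of the HSC libraries labelled N5 and DKO are mostly red and the MPP library labelled N5 is mostly blue, while Rpl7l1, Rpl36al and Rps27l differ from their neighbours.

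By Ifnar1 label, the members' share of counts was higher under the deficient label in all 4 pairs of libraries, by 0.384 and 0.397 percentage points in HSC and 0.387 and 0.683 in MPP. Of the 81 members, 74 had an estimate above 0 (49.6% of all genes tested), at a median of 0.11 against -0.01. With 1 library left out, the count ran from 54 to 80. The median was 0.05 to 0.07 without HSC labelled WT or DKO or MPP labelled N5 or IFNAR, and 0.17 without HSC labelled N5 or IFNAR. None was called in edgeR (0.0% of all genes), limma-voom or the bias-adjusted method, and DESeq2 called 1, Rps18 (0.651% of all genes were called higher). At an unadjusted p under 0.05 in edgeR, 2 members were higher, Rps18 among them (1.26%), and 0 lower (2.02%). The 2 became 6 without HSC labelled N5, 1 without HSC labelled IFNAR and 0 without any other single library. The members were higher in all 4 pairs in 25 cases (5.9%) and lower in all 4 in 0 (6.16%). In MPP both libraries labelled Ifnar1-deficient lay above both others in 46 members (16.7%), and in HSC in 6 (16.5%), among them Rpl22, Rps18, Rps19 and Rps2. The difference between cell types in this respect was not tested.

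Rps18, which lies in the head of the small subunit, had 812 and 929 CPM under WT and N5 and 959.97 and 1044 CPM under IFNAR and DKO in HSC, and 725 and 727 CPM against 834 and 884 CPM in MPP. The groups did not overlap in either cell type, and the log2 fold change was 0.22 ± 0.08 (SE), with an adjusted p of 1.0 in edgeR and 0.022 in DESeq2. The largest positive estimates by this label included those of Rpl22 (0.31), Rpl5 (0.28), Rpl11 (0.26) and Rpl13a (0.24). The 5 most negative estimates, Rps14, Rps26, Rps27l, Rps10 and Rpl29, lay between -0.08 and -0.01 and changed sign when single libraries were left out. Whether the difference by Nfat5 label depended on the Ifnar1 label was tested too: edgeR called 0 members (0.0%), 0 at an unadjusted p under 0.05 (1.62% of all genes higher, 1.71% lower), and 45 of 81 estimates were above 0 (50.6%), a count that ran from 17 to 71 when single libraries were left out. DESeq2 called 0 members (1.67% of all genes were called higher and 1.57% lower), as did limma-voom and the bias-adjusted method (0.0% of all genes in each).

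Ribosomal proteins outside the symbol rule lay in the same range of HSC over MPP estimates. Fau, whose product is a ubiquitin-like protein fused to a small subunit protein, had 0.20 ± 0.13 (SE). Rack1, the signalling scaffold on the small subunit, had -0.05 ± 0.11 (SE), with 672 to 783 CPM in HSC and 636 to 869.8 CPM in MPP.

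Other lists of ribosome production are given beside the background between HSC and MPP, where 44.2% of all genes tested were higher in HSC at a median of -0.10. Of 29 non-member transcripts known to carry a TOP motif, among them Fau and Rack1, 10 had a higher estimate in HSC, at a median of -0.05, and 0 were called by edgeR. Vim, an intermediate filament gene on that list, averaged 195 ± 54.8 CPM over HSC and 352 ± 43.4 CPM over MPP (SD, n = 4). Of 30 assembly factors 12 were higher in HSC, with a median of -0.11 and 0 called. Dkc1, the pseudouridine synthase of rRNA, averaged 272 ± 37.6 CPM over HSC and 445 ± 55.9 CPM over MPP (SD, n = 4; adjusted p = 0.19 in edgeR). Of 16 regulators 4 were higher in HSC, with a median of -0.31 and 0 called. Mycn, the Myc family member of HSC and also an HSC marker in the lists used here, averaged 485.5 ± 110.4 CPM over HSC and 64.5 ± 21.1 CPM over MPP (SD, n = 4), with an adjusted p of 0.055 in edgeR. Of 78 mitochondrial ribosomal protein genes 24 were higher in HSC, with a median of -0.13 and 0 called. By Nfat5 label within HSC, the medians were 0.01 for the TOP transcripts, -0.01 for the assembly factors, 0.16 for the regulators (11 of 16 higher), 0.18 for the mitochondrial ribosomal proteins (53 of 78) and 0.28 for the ribosomal proteins outside the rule (2 of 3), beside 0.28 for the members and 0.04 for all genes tested.

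Ribosomal protein genes have many processed pseudogenes that can take reads from them. The table held 313 rows named as pseudogenes of ribosomal proteins, 222 with a count, and together they had 2.13% to 2.32% of the members' counts in each library. The highest were Rpl15-ps3 and Rps23-ps1: Rpl15-ps3 had 33.6% of the mean CPM of Rpl15 and Rps23-ps1 33.1% of that of Rps23, so the levels of both parents are uncertain to that degree. Rps12-ps3 had 23.4% of the mean CPM of Rps12, Rpl31-ps8 19.6% of that of Rpl31 and Rpl28-ps1 16.6% of that of Rpl28. The level of Rps12, with the largest HSC difference by Nfat5 label, is thus uncertain too. With these 313 rows added to the members, the summed share of counts was 5.6025% to 6.903% in HSC and 5.08% to 5.90% in MPP, in the same order of libraries. Only rows named after a member followed by -ps were counted, so pseudogenes under other symbols are not covered.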

How the data were processed

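Gene counts of 8 libraries were analysed, 1 for each combination of cell type and genotype label. The authors deposited whole-number counts per gene, and the submitters' processing notes name STAR 2.7.8a, RSEM 1.3.0 and GRCm39; which step rounded the counts is not given in the sources used here. Per the labels' protocols, libraries were made by Smart-Seq2, which keeps neither strand nor molecular identifiers, so overlapping and antisense genes cannot be told apart. Rounded counts from shared reads also leave near-identical copies uncertain.

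Genes were filtered by cell type with edgeR 4.0.16 (R 4.3.3), which left 12132, and scaled by TMM. Quasi-likelihood tests with Benjamini-Hochberg adjustment over all genes tested compared HSC with MPP (genotype label as a block, 3 residual degrees of freedom), the Nfat5 and Ifnar1 labels (cell type as a covariate, 4 degrees of freedom) and their interaction (3 degrees of freedom); calls used an adjusted p under 0.05. CPM use TMM library sizes, and log2 ratios between single libraries add 0.5 CPM. Simulated data were also run through the fits, with changes larger than the members' estimates. Their dispersion was far below that of the real fits (common dispersion 1.06 to 1.14). That run thus does not measure power or error rates for these data. DESeq2 1.42.0, limma-voom (limma 3.58.1) and edgeR's bias-adjusted method were alternatives. Named were the paralogs with their parents, members called, the 5 largest positive and 5 largest negative estimates by cell type, Nfat5 and Ifnar1 label among members with a mean of at least 10 CPM, the 5 highest and 5 lowest single-copy members per kilobase, the stalk and Diamond-Blackfan genes, ribosomal proteins outside the symbol rule, and up to 4 genes of each other list. Rps18 and the members listed beside counts were named after their values were seen. The fits and counts cover all genes, but the values of a few single genes are not reported here, and 3 members are not drawn in the plots that name genes.

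The members and lists were chosen with earlier results of these data known. The test of cell type by Nfat5 label, the comparison without the HSC libraries labelled N5 and DKO, runs of 8 or more pyrimidines or at the start, and the transcript length were chosen after seeing the data. Promoter windows came from RefSeq (GRCm38.p6), and GENCODE M21 (GRCm38) gave lengths only, so no coordinate was mixed with the build of the counts.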

Additional observations from a re-analysis of the deposited data

Results flagged for a closer look

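In 80 groups of 4 libraries (the named members and the shares, by cell type), 6 had a library apart from the other 3 by Dixon's criterion, which chance alone gives in about 5% of groups. In HSC, the library labelled DKO stood high for Rpl4 (3700.0 CPM) and Rps6 (2558 CPM). The small subunit share of the member counts was low in the HSC library labelled IFNAR (39.2%). In MPP, the library labelled N5 stood low for Rpl13 (2001 CPM), Rplp1 (294 CPM) and Rps19 (731 CPM).

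The share of counts taken by ribosomal protein genes differed by Nfat5 label with opposite signs in the cell types. It was higher by 0.885 (N5 over WT) and 0.898 (DKO over IFNAR) percentage points in HSC, and the differences in MPP were -0.42 and -0.123. The small subunit gave 0.349 and 0.377 in HSC and -0.16 and -0.0506 in MPP, and the large subunit 0.536 and 0.521 in HSC and -0.26 and -0.0729 in MPP. The difference between the cell types in these shares was not tested.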

How the results depend on the processing

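Genes called between HSC and MPP numbered 2 in edgeR, 23 with at least 10 CPM in 4 libraries, 1880 in DESeq2, 156 in limma-voom, 107 with the bias-adjusted method, 207 without the genotype block and 0 to 0 with 1 library left out. The calls by Nfat5 label were 0 in edgeR and 166 in DESeq2, by Ifnar1 label 0, 233 in DESeq2 and 1 each in limma-voom and the bias-adjusted method, and for their interaction 0 and 393 in DESeq2. Members with a higher HSC estimate numbered 55 to 73 with 1 library left out, where the partner of the same label then adds nothing. They numbered 32 without the HSC libraries labelled N5 and DKO, a fit that rests only on the WT and IFNAR pairs. By Nfat5 label the 63 members above 0 became 15 in MPP alone, and for the interaction the 45 became 17 (without HSC labelled IFNAR) to 71 (without HSC labelled N5). The MPP difference in share by Nfat5 label, -0.272 percentage points, ran from -0.614 to 0.0699 with 1 library left out, and it reversed without MPP labelled N5. The small subunit share in HSC minus MPP was -0.70 points and, as a median log2 difference not divided by length, -0.19. In MPP alone, estimates by Nfat5 label reversed for Rpl7l1 (0.20), Rpl36a (-0.12) and Rps27l (-0.0559), and in HSC alone for Rpl29 (0.18), which ran from -0.28 to 0.0532 with 1 library left out. Estimates by Ifnar1 label reversed in MPP alone for Rps14 (0.0622), Rps27l (0.0376), Rps10 (0.23) and Rpl29 (0.18), and with total counts for Rps10 (0.0021) and Rpl29 (0.0015). With 1 library left out they ran from -0.19 to 0.0658 for Rps14, -0.13 to 0.10 for Rps26, -0.14 to 0.14 for Rps27l, -0.16 to 0.15 for Rps10 and -0.21 to 0.13 for Rpl29. The cause of these changes was not tested. The other 81 alternative values of comparisons lay within a set margin of the main count or share, so counts could still differ. For example, the 74 members above 0 by Ifnar1 label became 58 in HSC alone. Of the values of single members, 287 kept their direction and side of the threshold. A further 3 passed the threshold in DESeq2 (Rps14, Rpl17 and Rpl22 between HSC and MPP). No paired analysis was possible because each group holds 1 library, so replicate numbers pair nothing; the genotype label was the block between HSC and MPP.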
